A study of Rattus norvegicus with 24 samples.

Results

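The comparison described here was of kidneys from cystic rats given human ABCB5+ stromal cells into the abdominal cavity with kidneys from untreated cystic rats. It comprised 12 of the 24 animals in the series, 6 labelled i.p. ABCB5+ (animals 29, 30, 31, 32, 38 and 41) and 6 labelled Ctrl (animals 1, 12, 18, 22, 23 and 24). Every animal with either label was used, and all genes with sufficient counts were tested, which were 12778 of the 17334 deposited. As 1 treated animal, number 38, stood far from its group, each result was computed with and without it.

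All animals were male PKD/Mhm (Cy/+) rats, 8 months old, heterozygous for the Cy allele, a missense change in Anks6. Heterozygotes had been recognised by palpation of the abdomen. Treated animals received 2000000 ABCB5+ cells, which are mesenchymal stromal cells grown from human skin, once a month for 6 months, by intraperitoneal (i.p.) injection. Ctrl animals received no treatment, so injection and vehicle cannot be told apart from the cells. Total RNA came from the whole left kidney, frozen before the animal was perfused, and each library was 1 animal. Ctrl animals carried numbers from 1 to 24 and i.p. animals from 29 to 41, so anything tied to the number cannot be told apart from treatment either. The labels do not say what the numbers stand for.

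In the Cy/+ rat, cysts grow from tubules while the tissue between them becomes inflamed and scarred. Loss of functioning tubule lowers transcripts of transport and of mitochondrial energy supply, and injured tubules produce osteopontin (Spp1), kidney injury molecule-1 (Havcr1) and lipocalin-2 (Lcn2). Anks6 acts at the base of the primary cilium with inversin (Invs). In a whole kidney sample, fewer cells of a type and less RNA per cell cannot be told apart, and this holds for every level below. Human transcripts of the injected cells were not analysed here, since the counts are for rat genes.

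Total counts were 9304630 to 14034659 in the i.p. animals and 10405757 to 14125457 in Ctrl. Animal 38 had the smallest library and the fewest genes with a count, 13535 against 13883 to 14141 in the other i.p. animals and 13993 to 14149 in Ctrl. Nephron markers were present in all 12 kidneys. The summed level of 14 early proximal tubule markers, for example, was 3182 to 9901 CPM (counts scaled to the same library total) in Ctrl, 4234 to 7034 CPM in 5 i.p. animals and 10668 CPM in animal 38. Principal components of log2 CPM placed animal 38 apart from all others. Its score on component 1, which held 49.6% of the variance, was 95.9, while the other 11 animals lay between -42.7 and 18.2. The remaining i.p. animals were mixed with Ctrl on both components.

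**Figure D1:**
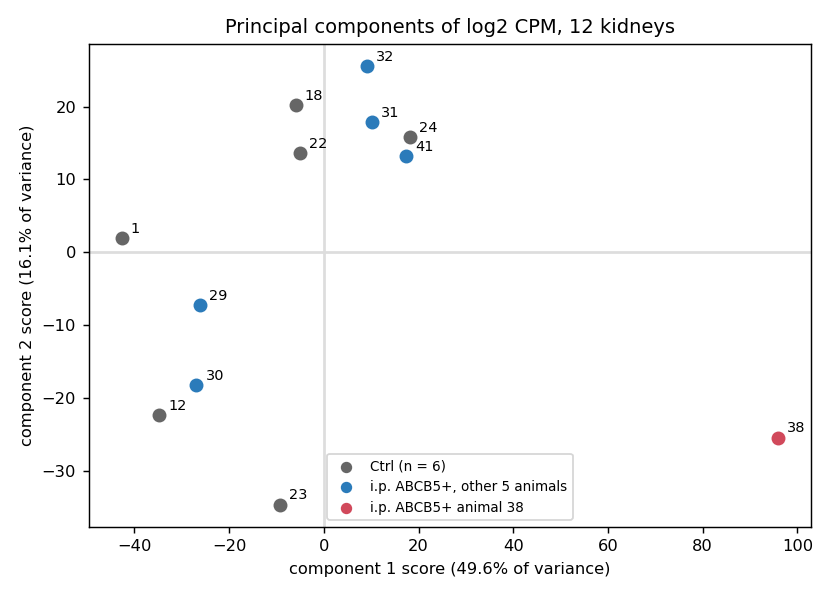
Scores of the 12 kidneys on principal component 1 (horizontal axis) and component 2 (vertical axis) of log2 CPM, with the animal number beside each point, Ctrl in grey, i.p. ABCB5+ in blue and i.p. animal 38 in red. Animal 38 sits at 95.9 on component 1, and the other 11 animals lie between -42.7 and 18.2 with both groups mixed.

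No gene was told apart between i.p. ABCB5+ and Ctrl kidneys. After adjustment over the 12778 genes, 0 (0.0%) had an adjusted p under 0.05 in the edgeR quasi-likelihood test, and the smallest adjusted p was 0.978. DESeq2, limma and an exact permutation test of every gene also called 0. At an unadjusted p under 0.05 there were 226 genes (1.77%), with 161 higher (1.26%) and 65 lower (0.509%), fewer than the 639 that chance would give. The balance depended on the fit, with 126 higher and 82 lower under median-ratio size factors, but 119 and 150 when only the groups compared were fitted, 155 and 212 when DESeq2 was run on these groups, and 130 and 169 by the exact permutation test. Without animal 38, 0 of 12840 genes (0.0%) were called, the smallest adjusted p was 0.9998, and the unadjusted count was 81 (0.631%), of which 49 were higher (0.382%) and 32 lower (0.249%). The same alternatives then gave 42 and 42, 54 and 113, 65 and 137, and 77 and 130. At an unadjusted p under 0.05, DESeq2 gave 277 genes with animal 38 and 127 without it, and the exact permutation test 299 and 207. Only limma with a weight for each sample gave more than chance would, 1242 and 915.

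Animal 38 moved many of the differences. Of the 226 genes, 64 (28.3%) also had a p under 0.05 without it, and these made up 80.0% of the 80 genes found without it that were tested in both. All 64 kept their direction. The median size of the log2 fold change was 0.113 with animal 38 and 0.0795 without it, at a median standard error of 0.172 and 0.174. Leaving it out changed the sign of 2057 genes (16.1%), whereas leaving out any of the other 11 animals changed the sign of 5.79% to 10.7%. Animal 38 was the most extreme of all 12 animals, in the direction of the group difference, in 121 of the 161 higher genes (75.2%) and in 33 of the 65 lower genes (50.8%). Over all genes that share was 48.4%.

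**Figure D2:**
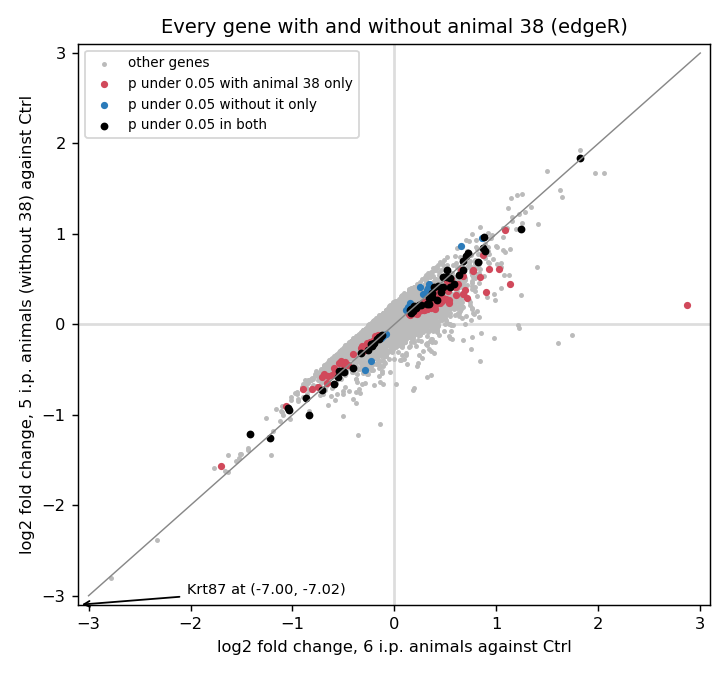
Log2 fold change of each gene, i.p. ABCB5+ against Ctrl, with all 6 i.p. animals (horizontal axis) and with 5 animals, animal 38 left out (vertical axis), and the line of equal values. Black points (64 genes) had an unadjusted p under 0.05 in both fits, red points with animal 38 only and blue points without it only, none passed adjustment, and Krt87 lies off the scale at the lower left.

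The genes with the smallest p among those higher in i.p. kidneys included the glucose transporter gene Slc2a1 and the distal nephron factor Tfap2b, but none passed adjustment. Rn7sl1, the RNA of the signal recognition particle, was at 2.18, 2.03, 2.63, 4.46, 5.81 and 4.14 CPM in i.p. animals 29, 30, 31, 32, 38 and 41. In Ctrl it was at 0.929 to 2.66 CPM with a median of 1.30. The ranges overlapped, with 3 treated animals above every Ctrl animal. Its log2 fold change was 1.24 ± 0.36 (SE) with animal 38 and 1.05 ± 0.36 without it (unadjusted p = 0.00216 and 0.00786, adjusted p = 0.978 and 0.9998, edgeR). Copies of this RNA are spread over the genome, so its count is uncertain.

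Guca2a encodes guanylin, a peptide that acts on salt transport. In the same order of animals it was at 22.2, 21.2, 23.3, 64.7, 52.2 and 33.5 CPM, against 13.4 to 27.6 CPM in Ctrl. Animals 32, 38 and 41 were thus above every Ctrl animal and the others lay inside the Ctrl range. The log2 fold change was 0.82 ± 0.25 with animal 38 and 0.69 ± 0.25 without it.

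Tfap2b, a transcription factor of the distal nephron, was at 52.5, 76.3, 90.6, 89.6, 134 and 106 CPM, against 47.2 to 81.7 CPM in Ctrl. The log2 fold change of Tfap2b was 0.58 ± 0.20, and 0.45 ± 0.19 without animal 38. Slc2a1, which encodes the glucose transporter GLUT1, was at 71.7, 81.2, 87.8, 98.8, 144 and 96.8 CPM, against 67.3 to 82.3 CPM in Ctrl. Its log2 fold change of 0.42 ± 0.14 became 0.27 ± 0.12 without animal 38, which had the highest value.

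Markers of the thick ascending limb, a distal segment, also had higher values. Of 11 thick ascending limb markers, all 11 had a positive log2 fold change with and without animal 38, with a median of 0.60 and 0.35. Their summed level was 3605 to 11523 CPM in Ctrl, 4946 to 11741 CPM in 5 i.p. animals and 20450 CPM in animal 38. The part of this in the leading genes was not tested.

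The other leading higher genes had small differences with little spread. Zfp954, a zinc finger gene, was at 14.7, 16.4, 13.6, 16.3, 18.5 and 17.3 CPM in the i.p. animals and at 11.9 to 13.7 CPM in Ctrl, so that 5 of 6 treated animals lay above every Ctrl animal. Its difference was 0.34 ± 0.11 on the log2 scale, and 0.29 ± 0.11 without animal 38 (exact permutation p = 0.00433 in both, two-sided). Hacd3, an enzyme of very long chain fatty acid synthesis, was at 78.2 to 97.8 CPM in i.p. animals and 73.3 to 80.7 CPM in Ctrl. Polr3d, a subunit of RNA polymerase III, was at 39 to 46.0 CPM and 35.4 to 41.4 CPM. Tmem184a had a log2 fold change of 0.46 ± 0.15 and the uncharacterised LOC100911627 one of 0.21 ± 0.069, and both kept a positive value without animal 38, at 0.35 and 0.19.

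Among the genes with lower values in i.p. kidneys, Dhx32, Eif2a and Lrrc27 had no overlap between the groups, though none passed adjustment. Dhx32, a putative RNA helicase, was at 35.2, 35.1, 32.5, 32.3, 34.6 and 35.1 CPM in i.p. animals 29, 30, 31, 32, 38 and 41, against 35.4 to 45.5 CPM in Ctrl. The gap between the groups was thus narrow. Its log2 fold change was -0.22 ± 0.075 and did not move without animal 38 (-0.22 ± 0.082, adjusted p = 0.978 and 0.9998, edgeR). Eif2a, a translation initiation factor, was at 71.4, 70.0, 73.1, 75.2, 69.6 and 74.7 CPM, against 75.9 to 84.0 CPM in Ctrl. For Eif2a the log2 fold change was -0.13 ± 0.048, and -0.12 ± 0.052 without animal 38. Lrrc27 was at 2.46, 2.10, 2.23, 1.01, 2.66 and 2.57 CPM, against 2.99 to 3.48 CPM in Ctrl, with a log2 fold change of -0.59 ± 0.22 and -0.66 ± 0.24. For these 3 genes the exact permutation p over 6 against 6 animals was 0.00216, the smallest that this design can give. Complete separation by itself gives this p, so it adds nothing to the lack of overlap. Adjusted over all genes, the smallest value of this test was 0.892.

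Nr3c1, the glucocorticoid receptor, was at 143, 149, 124, 117, 123 and 103 CPM in the i.p. animals and at 132 to 166 CPM in Ctrl. Animals 29 and 30 lay within the Ctrl range and the other 4 below it. The log2 fold change was -0.23 ± 0.087, and -0.22 ± 0.093 without animal 38. Mettl14, part of the enzyme that methylates adenosine in mRNA, was at 50.2, 43.9, 43.2, 40.6, 44.0 and 43.7 CPM, against 44.8 to 55.3 CPM in Ctrl. Apln, which encodes the vasoactive peptide apelin, was at 2.54 to 3.44 CPM in i.p. animals and 3.11 to 11.1 CPM in Ctrl. Ttpa, the transfer protein of vitamin E, was at 1.97 to 3.30 CPM and 2.65 to 5.32 CPM. Magee1, Zfp422 and the secreted protease Htra1 had log2 fold changes of -0.51, -0.15 and -0.20, which were -0.52, -0.13 and -0.20 without animal 38.

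**Figure D3:**
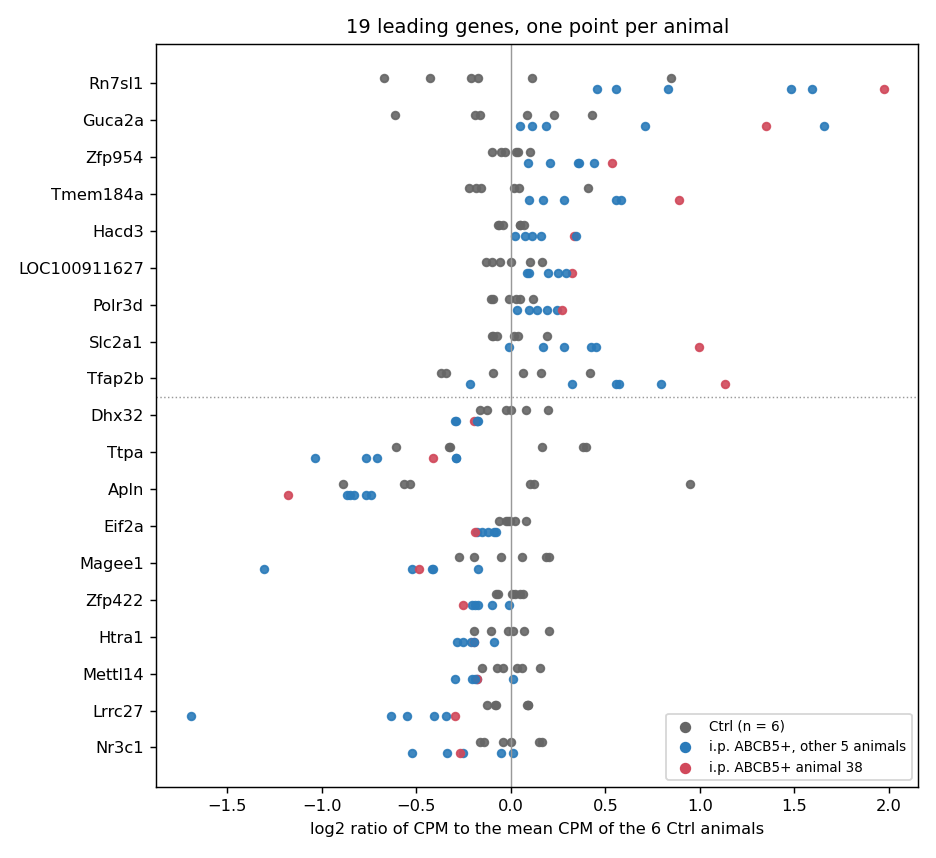
Of the genes with the smallest p in i.p. ABCB5+ against Ctrl, 9 higher (above the dotted line) and 10 lower, each point 1 animal, as the log2 ratio of its CPM to the mean of the 6 Ctrl animals (horizontal axis), with Ctrl in grey, i.p. ABCB5+ in blue and animal 38 in red. The groups overlap in all genes shown except Dhx32, Eif2a and Lrrc27.

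Other genes entered the leading lists without animal 38. En2, a homeobox gene, was at 9.68 to 13.5 CPM in the 5 i.p. animals and 5.26 to 10.4 CPM in Ctrl, with a log2 fold change of 0.52 ± 0.20 (unadjusted p = 0.0153, adjusted p = 0.9998, edgeR). Slc14a2, the urea transporter of the inner medulla, had the smallest p of all at 0.00171 and a log2 fold change of 4.49. This rested on animal 32 alone, in which it was at 42.9 CPM, while the other 11 animals were at 0.147 to 0.98 CPM, and its exact permutation p was 0.156. The lower genes that entered were Ak7 (-0.53 ± 0.21), Npl (-0.48 ± 0.19) and Brd7 (-0.11 ± 0.044).

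Complete separation of the groups was rare. Of the 12778 genes, 0 (0.0%) had all 6 i.p. animals above every Ctrl animal and 6 (0.047%) had all 6 below. Beside Dhx32, Eif2a and Lrrc27, these were Trim14, Sf3a3 and Spast, named after their values were seen. Trim14, an antiviral signalling protein, was at 9.93 to 12.8 CPM in i.p. animals and 12.9 to 17.1 CPM in Ctrl. Spast, a microtubule-severing enzyme, was at 36.3 to 37.7 CPM and 38.1 to 42.3 CPM. Sf3a3, a splicing factor, was at 43.1 to 46.5 CPM and 46.9 to 50.2 CPM. Without animal 38, 1 gene (0.00783%), Lto1, was above in all 5 and 10 genes (0.0783%) were below, among them Zfand5, Rabif, Tasp1 and Tmem65, in which animal 38 was not below Ctrl. Tmem65, a mitochondrial protein, was at 42.5 to 48.9 CPM in the 5 animals, 49.3 to 57.3 CPM in Ctrl and 75.7 CPM in animal 38. Computed from TPM (abundance scaled for transcript length and depth), 4 genes were above in all 6 animals.

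Differences over 2-fold with an unadjusted p under 0.05 were found in 13 genes with animal 38 and 6 without it, of which 5 were shared. These 5 were Rn7sl1, Ahrr, Krt87, Krt71 and Alox15, all at low counts, and apart from Rn7sl1 they were named after their values were seen. Ahrr, the repressor of the aryl hydrocarbon receptor, was at 0.493 to 0.772 CPM in i.p. animals and 0.771 to 2.84 CPM in Ctrl, with a log2 fold change of -1.22 ± 0.39 and of -1.25 ± 0.42 without animal 38. Krt87 was listed at 0 in all 6 i.p. animals and in 2 Ctrl animals, and at 0.664 to 3.01 CPM in the other 4. Krt71, like Krt87 a keratin of hair, was at 0.300 to 1.58 CPM in i.p. animals and at up to 0.882 CPM in Ctrl. For Alox15, a lipoxygenase, the Ctrl range of 1.21 to 17.9 CPM rested on animal 1, as no other Ctrl animal exceeded 3.52 CPM, and i.p. animals were at 0.363 to 3.60 CPM. Matn1 was among the 8 found with animal 38 only, at 15.7 CPM in that animal and 0.225 to 0.789 CPM in the other i.p. animals.

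Genes tied to the disease did not differ beyond the spread between animals. Of a panel of 33 genes, 31 were tested, and 0 of 31 passed adjustment with or without animal 38. Only Avpr2, the vasopressin receptor of the collecting duct, had an unadjusted p under 0.05 (0.0312, edgeR), with a log2 fold change of 0.47 ± 0.20. Over all genes, 1.77% had such a p. Avpr2 was at 33.1, 41.7, 37, 37.3, 81.2 and 57.9 CPM in i.p. animals 29, 30, 31, 32, 38 and 41, against 25.5 to 49.8 CPM in Ctrl. Animals 38 and 41 were above every Ctrl animal, and without animal 38 the log2 fold change was 0.26 ± 0.18. Aqp2, the water channel that vasopressin controls, had log2 fold changes of 0.50 ± 0.24 and 0.36 ± 0.24.

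Anks6 itself was at 61.7, 49.2, 62.9, 54.6, 54.5 and 56.6 CPM in i.p. animals and at 45.3 to 71.2 CPM in Ctrl, with a log2 fold change of -0.01 ± 0.15. All treated values lay inside the Ctrl range. Its partner Invs was at -0.03 ± 0.10. Pkd1 and Pkd2, which encode the polycystins of the cilium, were at -0.09 ± 0.18 and -0.18 ± 0.098, and at -0.01 ± 0.17 and -0.13 ± 0.099 without animal 38.

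Injury genes separated animal 38 from the other i.p. and Ctrl animals. Spp1 was at 11555, 9040, 6882, 10340, 426 and 6675 CPM in i.p. animals 29, 30, 31, 32, 38 and 41, and at 6967 to 11041 CPM in Ctrl. Havcr1 was at 225, 113, 89.9, 140, 4.85 and 75.2 CPM, against 91.1 to 167 CPM in Ctrl. Lcn2 was at 172, 173, 85.6, 136, 9.93 and 98.3 CPM, against 81.6 to 292 CPM in Ctrl. In all 3 genes animal 38 was far below the other 11 animals, and the other 5 i.p. animals lay around the Ctrl values. Such levels were also found in the other treated groups, where the lowest animal was at 640 (i.v. ABCB5+ cells) and 370 CPM (conditioned medium) for Spp1, 4.18 and 4.32 CPM for Havcr1, and 10.5 and 7.97 CPM for Lcn2. The log2 fold changes of Spp1 and Havcr1 were -0.18 ± 0.69 and -0.20 ± 0.74, and without animal 38 they changed sign to 0.07 ± 0.63 and 0.05 ± 0.70. That of Lcn2 went from -0.35 ± 0.68 to -0.11 ± 0.65.

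Fibrosis and inflammation genes followed the same course. Col1a1, the main fibrillar collagen, was at 488, 365, 346, 344, 58.5 and 304 CPM in the i.p. animals against 202 to 730 CPM in Ctrl, with log2 fold changes of -0.28 ± 0.52 and, without animal 38, -0.06 ± 0.49. The profibrotic factor Tgfb1 was at 45.8 CPM in animal 38 and 128 to 165 CPM in the other 5, against 103 to 229 CPM in Ctrl. Vcam1, Ccl2, Mki67 and Top2a were also lowest in animal 38. Their log2 fold changes moved from -0.52, -0.29, -0.26 and -0.48 to -0.32, -0.06, -0.03 and -0.25 without it. Umod and Egf, products of the thick ascending limb, were at 7596 and 6242 CPM in animal 38 and at 1690 to 6117 and 654 to 1885 CPM in the other i.p. animals. For Egf the log2 fold change of 0.76 ± 0.57 became 0.05 ± 0.52 without animal 38, and for Umod 0.76 ± 0.49 became 0.55 ± 0.50.

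Other panel genes are given here with animal 38 included. The matrix protein gene Fn1 was at -0.39 ± 0.45 and the glycolytic enzyme gene Pkm at 0.24 ± 0.13. Lrp2 and Slc34a1, the endocytic receptor and phosphate transporter of the proximal tubule, were at 0.09 ± 0.39 and 0.22 ± 0.48, with Ctrl ranges of 420 to 1850 and 673 to 3064 CPM that held all but animal 38 for Slc34a1, at 4049 CPM. The smooth muscle actin gene Acta2 was at 0.05 ± 0.28, and Nfkb1 and Stat3, transcription factors of inflammation, at -0.19 ± 0.20 and -0.03 ± 0.16. In glucose and lipid metabolism, Hk1 was at 0.12 ± 0.10, Pck1 at -0.12 ± 0.65, Ppara at -0.08 ± 0.41 and Ppargc1a at 0.15 ± 0.40. Without animal 38, Hk1 was at 0.056, and Stat3 changed sign to 0.045. Leaving out 1 animal could turn the direction of Lrp2, Slc34a1, Acta2, Stat3, Pck1 and Ppara, with ranges given below.

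The functions were described by 32 gene lists, each by the median log2 fold change of its tested genes and by a score per animal, the mean of the genes' log2 CPM after centring each gene. Over all genes the median log2 fold change was 0.0037 with animal 38 and -0.0052 without it. List medians ranged from -0.39 to 0.32 with animal 38 and from -0.22 to 0.12 without it, and 16 and 6 lists were more than 0.1 from 0. In all 32 lists the score range of the other 5 i.p. animals overlapped that of Ctrl. Animal 38 was above all 11 other animals in 8 lists and below all 11 in 13.

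Energy metabolism had the highest medians. All 73 genes of oxidative phosphorylation, the mitochondrial pathway that makes ATP, had a positive log2 fold change with and without animal 38. Over all genes, 51.0% and 48.2% were positive. In both fits 0 of the 73 had a p under 0.05, where 1.77% and 0.631% of all genes did. The median of the 73 was 0.32 with animal 38 and 0.12 without it. The score was -0.40, -0.16, 0.20, 0.30, 1.07 and 0.55 in i.p. animals 29, 30, 31, 32, 38 and 41, and -0.24 to 0.20 in Ctrl. Treated animals thus lay below, within and above the Ctrl range. Atp5f1b, a subunit of ATP synthase, was at 1654, 1888, 2465, 2582, 4635 and 2981 CPM, against 1699 to 2546 CPM in Ctrl, with a log2 fold change of 0.32 ± 0.25 and, without animal 38, 0.09 ± 0.24.

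Branched-chain amino acid breakdown (23 genes, median 0.31), fatty acid oxidation (30 genes, 0.22), citrate cycle (26 genes, 0.20), gluconeogenesis (11 genes, 0.15) and peroxisome (41 genes, 0.12) had medians of 0.08, 0.05, 0.04, -0.08 and 0.02 without animal 38. Within these, Phyh, which starts the breakdown of phytanic acid, had an unadjusted p of 0.0436 and a log2 fold change of 0.43 ± 0.20, while the fatty acid transporter Cd36 (-0.49 ± 0.20) and the citrate-cleaving enzyme Acly (-0.16 ± 0.074) were lower at 0.0232 and 0.0401. These are edgeR values with animal 38. Without it, 0 genes of these lists had a p under 0.05, and Phyh and Acly were at 0.33 and -0.12. Cd36 was at 35.7 to 53.5 CPM in i.p. animals and 35.8 to 76.6 CPM in Ctrl. The glutathione and Nrf2 response kept more of its median, 0.17 with and 0.12 without animal 38, and its gene Gsta3, a glutathione transferase, was at 9.12, 11, 19.9, 23.5, 31.1 and 24.4 CPM against 7.42 to 18.3 CPM in Ctrl. The log2 fold change of Gsta3 was 0.77 ± 0.34, and 0.60 ± 0.35 without animal 38. Glycolysis, whose Slc2a1 is described above, had medians of 0.12 and 0.05.

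Matrix and immune lists had the lowest medians. Collagens and matrix (44 genes) were at -0.39 with animal 38 and -0.20 without it, complement and acute phase (30 genes) at -0.35 and -0.15, and MHC class II and antigen presentation (19 genes) at -0.25 and -0.09. In each of these 3 lists 0 genes had a p under 0.05. Over all genes this share was only 1.77%, and 0.631% without animal 38, so 0 is not particular to these lists. The collagen score was 0.30, -0.09, -0.30, -0.31, -2.17 and -0.43 in i.p. animals 29, 30, 31, 32, 38 and 41, against -0.46 to 0.70 in Ctrl. Only animal 38 lay outside the Ctrl range.

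Interferon-stimulated genes (33 tested) had the lowest median without animal 38, at -0.22, against -0.31 with it. Of the 33, 2 had an unadjusted p under 0.05, Mx1 and Oasl2 (0.0376 and 0.0404, edgeR), both antiviral proteins induced by interferon. Over all genes, 65 of 12778 (0.509%) were lower at that p. Without animal 38, 0 of the 33 were. Mx1 and Oasl2 are described because of their p, so their values are not a result about the list. Mx1 was at 24.6, 35.6, 31.5, 25.5, 13.8 and 25.0 CPM in i.p. animals and at 25.4 to 54.7 CPM in Ctrl, with a log2 fold change of -0.71 ± 0.32 and, without animal 38, -0.59 ± 0.33. Oasl2 was at 27.6, 26.8, 24, 22.1, 12.5 and 18.6 CPM, against 23.1 to 46.2 CPM in Ctrl, with -0.55 ± 0.25 and -0.43 ± 0.25. All 6 treated animals were below the Ctrl mean in both genes, and the ranges overlapped. Neither had an adjusted p below 0.978 (edgeR), and without animal 38 the unadjusted p was 0.0908 and 0.10. The score of the list was -0.30 to -0.03 in the 5 i.p. animals and -0.46 to 0.35 in Ctrl.

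Signalling lists stayed closer to 0. Medians with and without animal 38 were -0.17 and -0.02 for NF-kappa B and TNF, -0.11 and -0.05 for JAK-STAT, -0.10 and -0.05 for integrins, laminins and focal adhesion, -0.09 and -0.07 for TGF-beta, -0.06 and -0.05 for Ras and MAPK, -0.03 and -0.03 for PI3K, Akt and mTOR, 0.03 and 0.02 for Wnt, and 0.01 and -0.04 for vasopressin and cAMP signalling. Single genes with a p under 0.05 were, with animal 38, the Wnt receptor Fzd1 (-0.18 ± 0.088), the cytoskeletal kinase Rock2 (-0.19 ± 0.089) and Avpr2. None passed adjustment, and without animal 38, 0 genes of these lists had a p under 0.05. Fzd1 was at 309 and 302 CPM in animals 29 and 30 and at 240 to 258 CPM in the other i.p. animals, against 279 to 334 CPM in Ctrl.

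Proliferation and mitosis had medians of -0.16 and -0.07, immediate early genes -0.13 and -0.07, apoptosis -0.08 and -0.02, senescence and p53 response -0.06 and -0.10, and circadian clock -0.06 and -0.11. Cholesterol synthesis and uptake (0.07 and 0.04), proteasome (0.06 and 0.03), PPAR alpha targets and regulators (0.05 and -0.07), cytosolic ribosome (-0.04 and 0.02) and unfolded protein and heat shock response (0.02 and 0.01) were near 0. The inversin compartment and polycystins, the group of the mutated gene, had medians of -0.02 and 0.00, and scores of -0.13 to 0.09 in the 6 i.p. animals within -0.19 to 0.26 in Ctrl. In the hypoxia response (0.04 and -0.02), Slc2a1 and the mitochondrial protein gene Higd1a (0.33 ± 0.14) had an unadjusted p under 0.05 with animal 38. Without it Slc2a1 and the vasodilator gene Adm (-0.50 ± 0.23) did, and none passed adjustment. Adm was at 16.2 to 29.4 CPM in 5 animals and 43.5 CPM in animal 38, against 23.5 to 38.5 CPM in Ctrl.

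**Figure D4:**
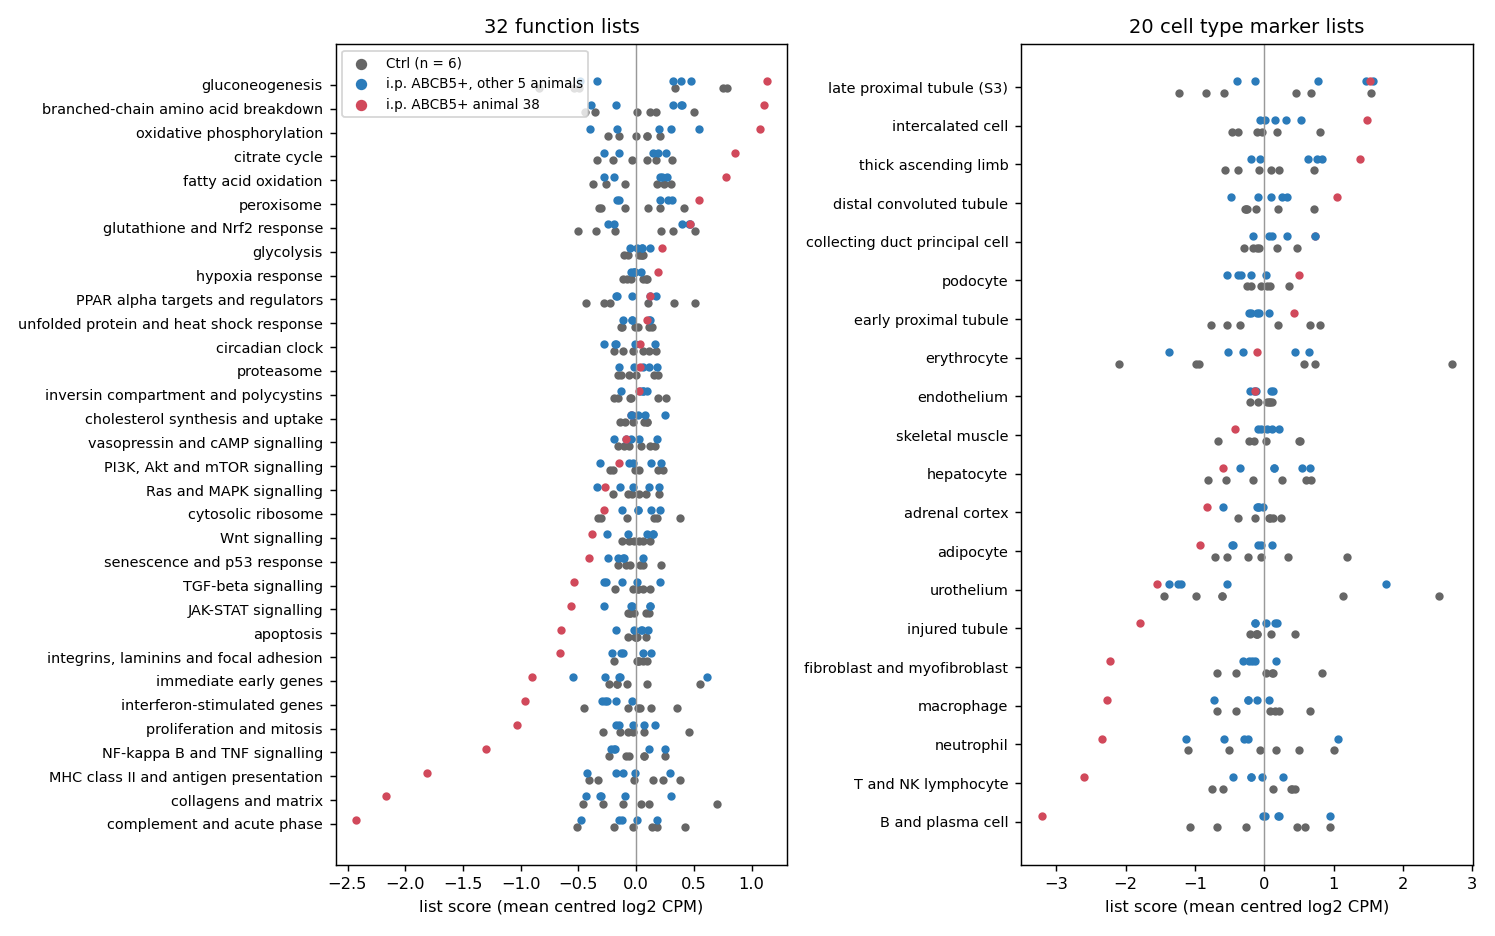
Score of each of 32 function lists (left) and 20 cell type marker lists (right) in each animal, as the mean of centred log2 CPM (horizontal axis), with Ctrl in grey, i.p. ABCB5+ in blue and animal 38 in red, ordered by animal 38. Animal 38 is above all 11 others in 8 function lists and below in 13, while the other 5 i.p. animals overlap Ctrl in all 52 lists.

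The 20 cell type marker lists were read in the same way, and in all 20 the other 5 i.p. animals overlapped Ctrl. Distal segments had positive medians, with 0.60 for thick ascending limb (11 markers tested), 0.52 for intercalated cell (12) and 0.38 for both collecting duct principal cell (13) and distal convoluted tubule (6). Without animal 38 these were 0.35, 0.20, 0.22 and 0.04. Cldn19, a tight junction protein of the thick ascending limb, was the gene in these lists with a p under 0.05 in both fits (0.0372 and 0.0327, adjusted p = 0.978 and 0.9998, edgeR). It was at 86.0, 84.7, 117, 165, 94.2 and 137 CPM in i.p. animals 29, 30, 31, 32, 38 and 41, and at 66.6 to 107 CPM in Ctrl. Its log2 fold change was 0.48 ± 0.21, and 0.52 ± 0.23 without animal 38, so animal 38 did not set it. The potassium channel Kcnj1, in contrast, was at 1370 CPM in animal 38 and 384 to 784 CPM in the other i.p. animals, and its log2 fold change went from 0.60 ± 0.29 to 0.32 ± 0.26. Fxyd4, a regulator of the sodium pump in collecting duct, was at 13.7 to 55.0 CPM against 15.8 to 27.8 CPM in Ctrl.

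Late proximal tubule (10 markers) had medians of 0.59 and 0.34, early proximal tubule (14) -0.02 and -0.10, and podocyte (11) -0.11 and -0.29. The podocyte score was 0.03, -0.19, -0.34, -0.54, 0.49 and -0.38 in the i.p. animals and -0.25 to 0.36 in Ctrl, so animal 38 was the highest and 3 others were below the Ctrl range. Medians with and without animal 38 were -0.48 and -0.29 for macrophage (15 markers), -0.40 and -0.22 for T and NK lymphocyte (13), -0.40 and -0.22 for fibroblast and myofibroblast (14), -0.18 and 0.04 for injured tubule (15), -0.07 and -0.03 for endothelium (14), and -0.02 and 0.20 for B and plasma cell (8). In all of these lists 0 genes had a p under 0.05, where only 1.77% of all genes did, and 0.631% without animal 38.

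In some lists of cells from blood and neighbouring tissue, 1 or a few animals stood out. Erythrocyte markers had a median of -1.52, with Hba-a2, an alpha globin gene whose reads may be shared with its near copies, at 4839 CPM in Ctrl animal 1, 71.9 to 708 CPM in the other Ctrl animals and 131 to 698 CPM in i.p. animals. Without Ctrl animal 1 the median was 0.13. Urothelium (3 markers tested) was at -0.95, and had its highest treated score in animal 32, at 1.7, while Ctrl animals 12 and 22 were at 1.1 and 2.5. Neutrophil (4), adrenal cortex (4), adipocyte (5), hepatocyte (4) and skeletal muscle (4) were at -0.40, -0.46, -0.09, -0.07 and 0.04, and at -0.20, -0.42, -0.14, 0.09 and -0.07 without animal 38. Cyp11b2, the aldosterone synthase of the adrenal, was at 2.66 to 5.33 CPM in i.p. animals and 4.26 to 9.16 CPM in Ctrl.

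Animal 38 was then compared with the other 5 i.p. animals, as a description with no test. It was the highest or lowest of the 6 in 63.9% of genes, whereas this was 11.4% to 39.2% in the other i.p. animals and 16.6% to 46.4% in Ctrl animals. It differed over 2-fold from the mean of the other 5 in 2375 genes (18.6%), against 1.25% to 6.97% in the other 11 animals. The spread within the i.p. group was larger than within Ctrl in 61.0% of genes with animal 38 and in 43.2% without it, with a median SD of log2 CPM of 0.278 and 0.215 in i.p. animals and 0.232 in Ctrl.

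**Figure D5:**
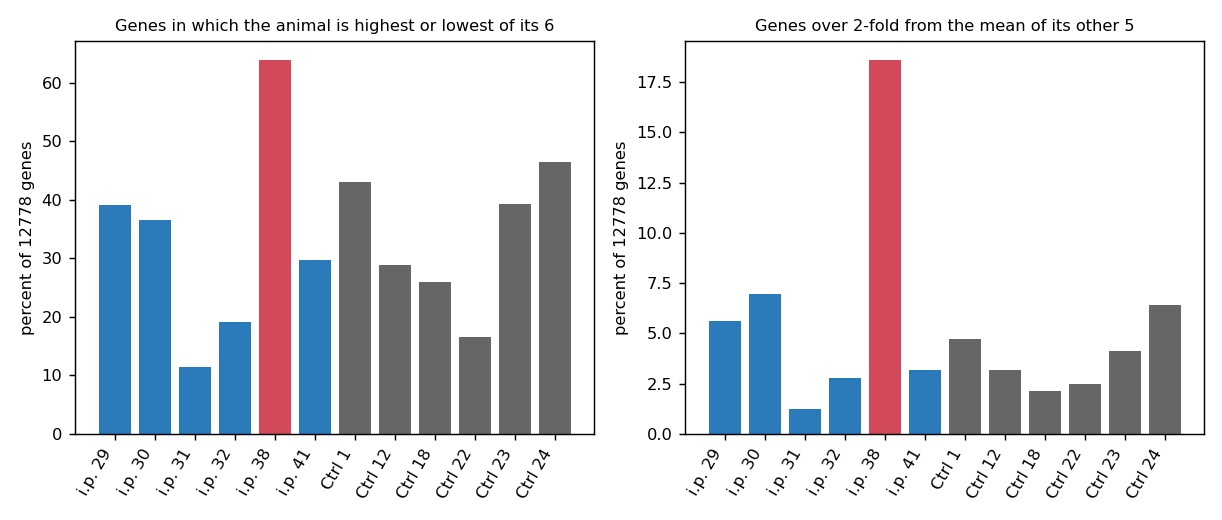
Share of the 12778 genes in which each animal is the highest or lowest of its group of 6 (left) and differs over 2-fold from the mean of the other 5 (right), as bars from 0, with i.p. ABCB5+ in blue, animal 38 in red and Ctrl in grey. Animal 38 reaches 63.9% and 18.6%, above all other animals.

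Apart from Egf, the genes furthest above the others in animal 38 included kidney kallikreins. The kidney kallikrein genes Klk1b3 and Klk1c9 were at 4478 and 82.7 CPM, against 262 to 901 and 1.82 to 9.67 CPM in the other 5. The kallikrein genes are near copies of each other, so the split of reads between them is uncertain. Dnase1, a secreted nuclease, was at 2555 CPM against 242 to 1010 CPM, and Gp2, a relative of uromodulin, at 120 CPM against 15.2 to 34.5 CPM. Capn6 was at 66.5 CPM against 7.05 to 16.1 CPM. In all 5 genes animal 38 also exceeded every Ctrl animal. Mrpl1, Cyp1a1, Cyp2c11 and Cacng5 met the same rule, but each had another animal of the 12 at more than 10 CPM.

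The genes furthest below included products of matrix and of B cells. Postn and Tnc, matricellular proteins of scarring tissue, were at 0.485 and 0.606 CPM in animal 38, against 13.9 to 35.6 and 14.7 to 42 CPM in the other 5. Spib, a transcription factor of B cells, was at 0.363 CPM against 13.9 to 34.4 CPM. The acute phase gene Serpina3n was at 1.21 CPM against 21.8 to 70.3 CPM, and Car3, Alox15b and the mesothelial gene Msln were at 1.70, 0.485 and 0.485 CPM against lowest values of 59.6, 16.1 and 10.1 CPM. Aoc1 was listed at 0 in animal 38 and was at 8.99 to 24.7 CPM in the others, and Apol7b was listed at 0 in animals 38 and 41. At 9304630 counts, 3 counts correspond to 0.322 CPM in this library, so the value of Spib rests on very few reads. In i.p. against Ctrl, none of the genes named for animal 38 passed adjustment.

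Finally, i.p. ABCB5+ kidneys were set against the other treated groups of 6. Against ABCB5+ cells given intravenously, 0 genes were called and 274 had an unadjusted p under 0.05, and against conditioned medium of the cells (CoCM) 0 and 522 (edgeR). Chance would give 639. Without animal 38 these were 0 and 370, and 0 and 666, where chance would give 642. With animal 38, DESeq2 called 1 gene in each comparison, both lower in i.p. animals, namely Ifrd1 and Ovca2, the latter overlapping Dph1 in the annotation. The call of Ifrd1 was lost without animal 38, while 1 gene was still called against CoCM.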

How the data were processed

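Kidney RNA of 24 rats, 6 in each of 4 groups, had been sequenced on a BGISEQ-500. Per the submitters' processing notes, reads were trimmed with Trim Galore 0.6.4 and quantified with kallisto 0.4.6 (build rn6), and the estimated counts were deposited per gene. The study's methods also name a human transcript package (hg19) for this step, and the annotation of the rat genes is not given in the sources used here. The TPM values, deposited beside the counts, had been made by the authors from the same quantification and scaled for length and depth. Gene symbols were matched to 17179 of 17334 Entrez identifiers. Whether strand was used in quantification is not stated, so overlapping genes may share reads.

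Estimated counts, of which 86.4% to 87.3% were whole, were rounded. Genes were filtered with filterByExpr, scaled by TMM and tested with edgeR 4.0.16 (R 4.3.3) by the quasi-likelihood F-test on all 24 animals, or 23 without animal 38, with Benjamini-Hochberg adjustment over all genes and a threshold of 0.05. The spread was thus estimated over 4 groups, with a common coefficient of biological variation of 0.299 (0.287 without animal 38), against 0.26 and 0.228 in the groups compared alone. Values after ± are standard errors of the log2 fold change. CPM used TMM library sizes, and scores and components used log2 CPM with a prior count of 2. The two-sided exact permutation test compared mean log2 CPM over 924 divisions of 12 animals (462 of 11). It had been planned with adjustment over the genes it was given for, but was run on and adjusted over all genes. No 2 libraries agreed within sampling noise (smallest chi-square per degree of freedom 10.3). At 9304630 to 14125457 counts per library, 3 counts correspond to 0.322 CPM in the smallest library compared and 0.212 CPM in the largest, for counting error only.

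The tests were tried on simulated counts in which 200 genes changed 4-fold between i.p. ABCB5+ and Ctrl. Of these, edgeR recovered 97.5%, and 95.0% without animal 38, of 12731 and 12751 genes tested, and DESeq2 99.0% and 97.0%. All simulated animals were drawn around shared means, so none stood apart as animal 38 did. The changed genes were not taken from those with low counts. Smaller changes, such as the observed median log2 size of 0.113, were not simulated, so the recovery does not apply to them. With no gene changed, edgeR called 0, and DESeq2 4 with animal 38 and 0 without it. Alternatives were DESeq2 1.42.0, limma 3.58.1 on weighted counts and on log2(TPM + 1), median-ratio size factors, 2 other count filters, a fit of only the groups compared, and leaving out each animal.

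Named genes were the 10 per direction with the smallest edgeR p and an average log2 CPM above 1, with and without animal 38, a panel of disease genes, up to 2 genes per direction and list, and the 10 per direction in which animal 38 differed most from the other 5 i.p. animals (average log2 CPM above 3). Genes outside these rules are named in the text as such. The comparison, the genes and the lists were chosen with earlier results of these data known. Coordinates and sequences were not used here, as the reference table was of another build. A few genes that these rules name are not reported here.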

Additional observations from a re-analysis of the deposited data

Results flagged for a closer look

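In 30 of 244 pairs of a value and a group of 6 animals, 1 animal lay apart from the rest of its group, meaning that its gap to the nearest animal, divided by the group's range, exceeded Dixon's 95% critical value for 6 samples. Chance gives this in about 1 in 20 groups, or 12.2 pairs, and the pairs are not independent. Of the 30, 22 came from i.p. animal 38. No explanation was tested.

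Animal 38 was below the other 5 i.p. animals in genes of injury, scarring and division. It was at 426 CPM for Spp1 against 6675 CPM or more, 4.85 CPM for Havcr1 against 75.2 or more, 9.93 CPM for Lcn2 against 85.6 or more and 17.2 CPM for Vcam1 against 62.1 or more. For Col1a1 it was at 58.5 CPM, with the next animal at 304, for Tgfb1 at 45.8 with the next at 128, and for Ccl2 at 4.72 with the next at 25.9. The division genes Mki67 and Top2a were at 2.30 and 1.09 CPM, against lowest values of 13.2 and 8.09 in the other 5, and the apelin gene Apln at 2.54 against 3.16.

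The same animal had the lowest scores, on the scale of log2 CPM centred per gene, for lymphocytes and matrix. These were -3.21 for B and plasma cell markers, -2.60 for T and NK lymphocyte, -2.43 for complement and acute phase, -2.27 for macrophage, -2.22 for fibroblast and myofibroblast, -2.17 for collagens and matrix, -1.81 for MHC class II and antigen presentation and -1.80 for injured tubule. Smaller gaps were found for NF-kappa B and TNF signalling (-1.30), proliferation and mitosis (-1.03), interferon-stimulated genes (-0.96) and apoptosis (-0.65).

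Animal 32 was apart in 4 values. Slc14a2 was at 42.9 CPM against at most 0.526 CPM in the other i.p. animals, and the urothelium score was 1.75 against at most -0.54. Magee1 and Lrrc27 were lower in it, at 1.44 and 1.01 CPM against at least 2.47 and 2.10. In animal 29, Mettl14 was at 50.2 CPM against at most 44.0, and in animal 41 the score of the inversin compartment and polycystins was -0.13 against at least 0.03. Among Ctrl, animal 23 had a total count of 10405757 against at least 13320840, and animal 18 a score of -0.20 for integrins, laminins and focal adhesion against at least 0.00.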

How the results depend on the processing

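No gene passed adjustment in i.p. ABCB5+ against Ctrl under any alternative run, with or without animal 38, and these included leaving out each of the 12 animals. No paired analysis was possible because the animals carry no number shared between groups. The number of genes at an unadjusted p under 0.05, which was 226 with animal 38 and 81 without it, was less stable. With animal 38 it was 367 by DESeq2 on the groups compared and 1242 by limma with sample weights. Without animal 38 it was 127 by DESeq2, 202 by DESeq2 on the groups compared, 171 with no count filter, 167 with only the groups compared and 915 by limma with sample weights. Leaving out 1 animal gave 81 (without i.p. 38) to 633 (without i.p. 29), with 450 without Ctrl 23, 434 without i.p. 30, 115 without Ctrl 22 and 103 without i.p. 41. With animal 38 already left out it gave 59 (without Ctrl 22) to 202 (without Ctrl 23), with 187 without i.p. 29 and 135 without i.p. 30. Against i.v. ABCB5+ cells, 179 genes in place of 274 had a p under 0.05 with only the groups compared. DESeq2 called 1 gene there and 1 against CoCM, where edgeR called 0.

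For 68 of the genes named in the text, mainly the leading, panel and list genes, 670 log2 fold changes under other settings kept their direction and 6 did not. Limma with sample weights gave 0.03 for Anks6, 0.07 for Invs, 0.01 for Stat3 and -0.04 for Acta2, and log2(TPM + 1) gave -0.04 for Acta2 and 0.10 for Pck1. Leaving out 1 animal turned the direction in 24 values and not in 977. The ranges were -0.06 to 0.06 for Anks6, -0.07 to 0.01 for Invs, -0.34 to 0.07 for Spp1, -0.55 to 0.05 for Havcr1, -0.06 to 0.43 for Lrp2, -0.11 to 0.44 for Slc34a1, -0.44 to 0.00 for Col1a1, -0.23 to 0.25 for Acta2, -0.44 to 0.03 for Ccl2, -0.09 to 0.04 for Stat3, -0.51 to 0.36 for Pck1 and -0.29 to 0.09 for Ppara. The cause was not tested.

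Genes with all 6 i.p. animals above every Ctrl animal numbered 4 from TPM in place of 0. With 5 animals, those above numbered 2 under median-ratio size factors and 5 from TPM in place of 1, and those below 4 from TPM in place of 10. These alternatives were added after seeing the data, as were the extension of the exact permutation test to every gene and the counts at an unadjusted p. List medians moved by at most 0.03 under median-ratio size factors and by up to 1.1 from log2(TPM + 1), where the erythrocyte median was -0.37 in place of -1.52. Without Ctrl animal 1 that median was 0.13.

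With 9304630 counts, animal 38 had the smallest library of the 12, and the part of depth in the results was not tested. The order in which animals were treated and collected cannot be told apart from the groups.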
